A study of Mus musculus with 2 samples.

Results

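Granzyme-expressing CD4 T cells were defined as T cells with no UMI (unique molecular identifier, 1 counted transcript molecule) of Foxp3 or Klrb1c and at least 2 UMIs of Gzma and Gzmb together. The cells were chosen by these measured UMI counts, which are therefore no finding. They numbered 192 of 12789 T cells, 64 of 3879 in library 1 and 128 of 8910 in library 2, and made up 1.61% of the 11912 Foxp3-zero T cells. By the granzyme detected, 20 were Gzma-only (9 and 11 in the 2 libraries), 156 were Gzmb-only (46 and 110) and 16 held both (9 and 7). The cells came from male wild-type C57BL/6J mice of 8 weeks, and all groups share this strain, sex and age, with no transgene and no treatment named. Brown (BAT), subcutaneous (SAT) and visceral (VAT) adipose tissue and spleen were sorted for live cells positive for CD4, CD3 and the beta chain of the T cell receptor, labelled with hashtag antibodies and sequenced as droplets, 1 library per experiment with 8 hashed samples in each. Replicates 1 and 2 of a tissue belong to experiment 1 and replicates 3 and 4 to experiment 2. The labels call them duplicates without saying whether each is a separate animal, so that p-values over hashed samples measure the spread between those samples.

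Granzymes are serine proteases stored in the granules of cytotoxic lymphocytes and delivered into target cells through pores made by perforin. Granzyme B cleaves caspases and their substrates, and granzyme A is a tryptase-like protease linked to inflammatory forms of cell death. Cytotoxic programmes are best known from CD8 T cells and natural killer (NK) cells, but CD4 T cells with granzymes, Nkg7 (a granule membrane protein of killer cells) and Ccl5 (a chemokine that recruits T cells and monocytes) are known from chronic inflammation and from tissues.

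T cells had a median of 6121 UMIs in library 1 and 4316.5 in library 2, and 9 barcodes occurred in both libraries. Hashtags gave a single sample for 3559 of 3985 and 6812 of 9004 cells. The hashtags of SAT replicate 1 and BAT replicate 4 were weak, and a stricter call kept 139 of 593 and 492 of 816 of their cells. Of the 192 granzyme-expressing cells, 162 had 1 hashed sample, 25 carried hashtags of more than 1 sample and 5 were unresolved. Comparisons by tissue use the 162.

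Gzma lies on chromosome 13 (113093825 to 113100981, minus strand) and Gzmb on chromosome 14 (56258838 to 56262260, minus strand) of mm10, so the counts of the 2 granzymes come from separate loci. Gzmb UMIs in Gzmb-only cells ran from 2 to 40 with a median of 4, and the highest cell held 4.76% of their 841 Gzmb UMIs. Gzma UMIs in Gzma-only cells ran from 2 to 152 with a median of 7.5. Cells with both held 1 to 428 Gzma UMIs (median 3.5) and 1 to 33 Gzmb UMIs (median 4.5), and a single cell carried 72.3% of their 592 Gzma UMIs. Gzma counts were therefore spread over a far wider range than Gzmb counts. These values chose the cells and are a description only.

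**Figure D1:**
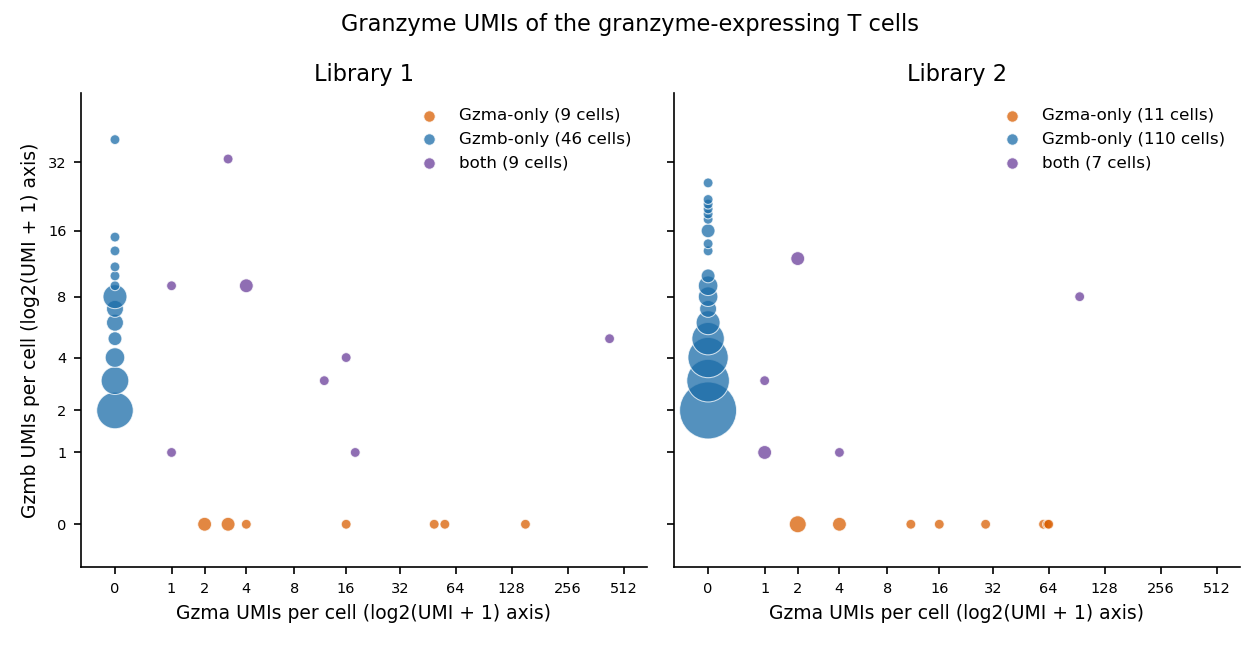
Gzma UMIs (x axis) against Gzmb UMIs (y axis) of each granzyme-expressing cell in library 1 and library 2, both on a log2(UMI + 1) axis, with the area of a point proportional to the number of cells. Gzmb-only cells crowd at 2 to 8 UMIs, and Gzma reaches 428 UMIs in a cell with both.

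The threshold divides a continuous range. At exactly 2 granzyme UMIs there were 56 cells, at 3 there were 29, at 4 or more 107 and at 20 or more 16, and 299 Foxp3-zero, Klrb1c-zero cells lay just outside with 1 UMI. Nkg7 was detected in 80.4% of cells at 2 UMIs, in 90.4% at 3 or more and in 59.5% of those at 1 UMI, and Klrg1 in 35.7%, 46.3% and 14.4%. Depth differed between these cells, with medians in library 2 of 3801, 5218 and 3207 UMIs in the same order. In library 1 the medians were 8355, 6732 and 6668 UMIs, and 229 of the 299 cells at 1 UMI were from library 2. The part of depth in these detection rates was not tested. Free RNA was gauged in B-like cells, barcodes with 3 or more UMIs of Cd79a, Cd79b and Ms4a1 and none of Trbc1 or Trbc2, which should lack granzymes. At least 2 granzyme UMIs were found in 0 of 11 of these in library 1 (median 4759 UMIs) and 0 of 13 in library 2 (median 3938 UMIs), which allows shares of up to 27.3% and 23.1%, so that so few cells set no useful limit. Among all Foxp3-zero T cells, Klrb1c-positive ones included, the shares were 2.47% (exact 95% interval 1.98 to 3.04%, median 6106 UMIs) and 2.14% (1.85 to 2.48%, median 4315 UMIs). All intervals cover counting error only.

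The label was checked against lineage genes. Cd4, the coreceptor used for sorting, was detected in 40 of 64 granzyme-expressing cells of library 1 (62.5%, exact 95% interval 49.5 to 74.3%) and in 54 of 128 of library 2 (42.2%, 33.5 to 51.2%), against 67.1% and 51.4% of Cxcr6 cells without granzyme. Among the 192 cells Cd8a was found in 2.6% and Cd8b1 in 5.2%, the NK receptor Ncr1 in 0.5%, the gamma-delta gene Trdc in 0.5%, Zbtb16 (the factor of NKT cells) in 3.1%, and the NK adaptors Tyrobp and Fcer1g in 8.3% and 16.7%. A UMI of at least 1 of Cd8a, Cd8b1, Trdc, Ncr1, Tyrobp and Fcer1g stood in 53 of the cells. Without such cells, SAT replicates 1, 3 and 4 kept 15 of 21, 16 of 22 and 43 of 58 granzyme-expressing cells. VAT replicates 1 and 3 kept 12 of 15 and 8 of 10. Of Cxcr6 cells without granzyme, the same samples kept 190 of 203, 162 of 176, 259 of 276, 165 of 177 and 195 of 205. In the 75 Klrb1c-positive cells with 2 or more granzyme UMIs, which the rule leaves out, Fcer1g was found in 61.3%, Tyrobp in 30.7% and Ncr1 in 12%. The group therefore holds few cells with CD8 genes and a larger fraction with Fcer1g, and Nkg7 (87.5%) and Ccl5 (91.1%) were detected in most of it. Perforin (Prf1) was detected in 25 of 192 cells (13.0%, exact 95% interval 8.61 to 18.6%), against 3.28% of Cxcr6 cells without granzyme and 6.71% of all Foxp3-zero T cells.

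Granzyme-expressing cells were found mostly in fat, with the highest mean share in SAT. Their share of Foxp3-zero T cells was 4.10, 2.98, 2.98 and 6.90% in SAT replicates 1 to 4, 3.48, 1.53, 1.16 and 0.894% in VAT, 0.415, 0.498, 0.903 and 0.387% in BAT, and 0, 0, 0 and 0.216% in spleen. Mean shares were 4.24% ± 1.85 in SAT, 1.77% ± 1.17 in VAT, 0.551% ± 0.240 in BAT and 0.0540% ± 0.108 in spleen (SD, n = 4 each). Every SAT value lay above every BAT and spleen value, whereas SAT and VAT overlapped through VAT replicate 1. A count of 0 in spleen replicates 1 to 3 allows up to 0.935, 0.781 and 0.384%.

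The exact permutation test within experiments, two-sided, can give no p below 0.0556 here and reached it for BAT minus SAT (-3.69 percentage points), SAT minus spleen (4.19), VAT minus spleen (1.71) and BAT minus spleen (0.497). Adjusted over the 6 tissue pairs by Benjamini-Hochberg, this exact permutation p was 0.0833 for each. BAT minus spleen fell to 0.120 percentage points in cells thinned to 1000 UMIs (exact permutation p = 0.5), and as a share of Cxcr6 and granzyme-expressing cells its exact permutation p was 0.111, as was that of BAT minus SAT, and that of VAT minus spleen was 0.167. SAT against VAT (2.47 percentage points) and VAT against BAT gave an exact permutation p of 0.111. SAT exceeded VAT by 2.65 percentage points with the stricter hashtag call, by 1.59 without SAT replicate 4, by 0.994 with 4 or more granzyme UMIs required (exact permutation p = 0.389) and by 1.03 in cells thinned to 1000 UMIs (exact permutation p = 0.167), and BAT minus VAT was -0.644 without VAT replicate 1. By experiment, SAT exceeded VAT by 1.04 percentage points in experiment 1 and by 3.91 in experiment 2. Spleen was not digested with collagenase and fat was, per the labels, so digestion and tissue cannot be told apart in the comparisons with spleen.

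The Gzmb-only cells and the cells with Gzma were also counted apart. Gzmb-only cells made up 3.89% ± 1.70 of Foxp3-zero T cells in SAT and 0.960% ± 0.583 in VAT (SD, n = 4), and every SAT value lay above every VAT value (exact permutation p = 0.0556, the smallest possible). Cells with Gzma, alone or with Gzmb, made up 0.348% ± 0.351 in SAT and 0.806% ± 0.710 in VAT, and the samples overlapped (exact permutation p = 0.444). By counts, SAT held 101 Gzmb-only cells, 5 Gzma-only cells and 4 with both, and VAT held 19, 8 and 9. BAT held 11, 2 and 1, and spleen 2 Gzmb-only cells and no cell with Gzma. Over the 5 hashed samples with 10 or more of the cells, Gzmb-only cells averaged 89.8% of them in SAT (80.95, 95.5 and 93.1% in replicates 1, 3 and 4) and 53.3% in VAT (46.7 and 60.0% in replicates 1 and 3). This order held in both experiments, with differences of 34.3 percentage points in each, and with 6 arrangements the exact permutation p of 0.167 is the smallest possible.

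**Figure D2:**
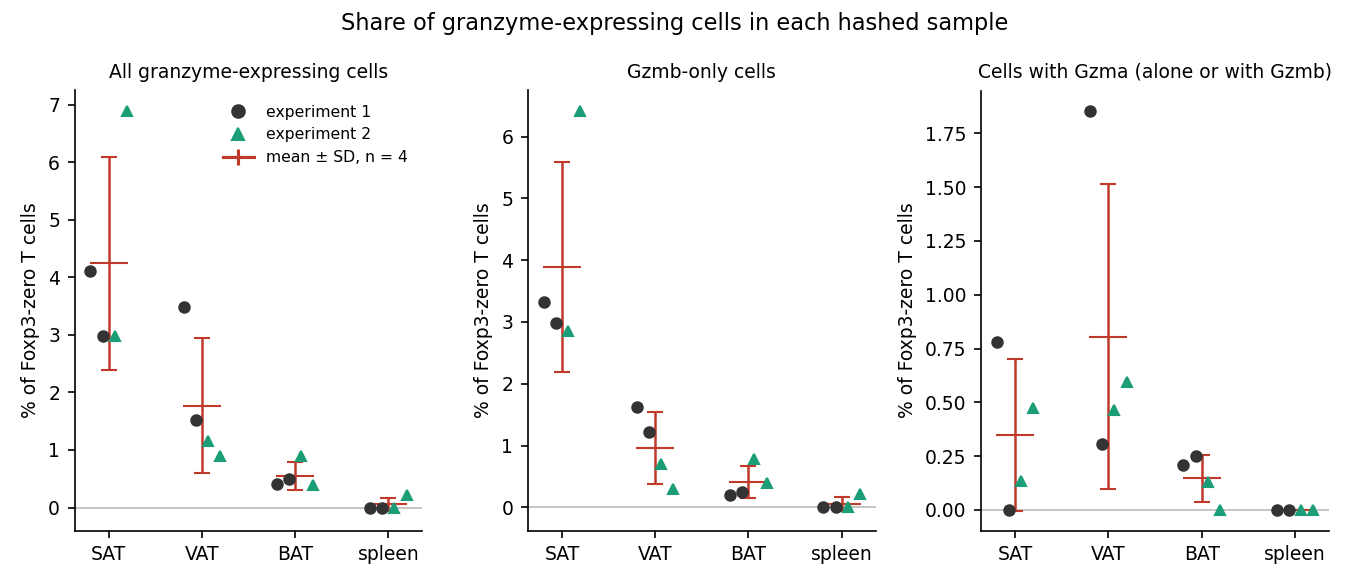
Share of Foxp3-zero T cells, in percent, made up by all granzyme-expressing cells, by Gzmb-only cells and by cells with Gzma in each of 16 hashed samples, with circles for experiment 1 and triangles for experiment 2 and red bars for the mean ± SD of 4. SAT holds the highest shares of Gzmb-only cells (mean 3.89%), while cells with Gzma have their highest mean in VAT (0.806%).

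Granzyme-expressing cells were next compared with Cxcr6 cells without granzyme, that is Foxp3-zero, Klrb1c-zero cells with at least 1 UMI of Cxcr6 (a chemokine receptor of tissue T cells) and no Gzma or Gzmb. There were 2198 of these, 815 and 1383 by library. Beyond the granzymes, the granzyme-expressing cells carried more Nkg7, more of the chemokines Ccl5, Xcl1, Ccl4 and Ccl3, and more of the receptors Klrg1, Cd160, Cd7 and Slamf7, and less of Il7r, Tcf7 and Cd5. UMIs were summed for each class in the 5 hashed samples with at least 10 cells of both, SAT replicates 1, 3 and 4 and VAT replicates 1 and 3, and expressed as counts per 1e6 UMIs of the sum (CPM). With edgeR's quasi-likelihood test, each hashed sample as a block and Benjamini-Hochberg adjustment, 81 of 7438 genes passed at an adjusted p under 0.05 (1.09%), 54 higher (0.726%) and 27 lower (0.363%) in the granzyme-expressing cells. Scaled by library size alone, 75 passed (1.01%), 58 higher (0.78%) and 17 lower (0.229%). Median UMI counts were higher in granzyme-expressing than in comparison cells, 7214.5 against 6196 in library 1 and 4923 against 4512 in library 2. In cells thinned to 1000 UMIs, 73 of the 3068 genes left passed, 16 higher and 57 lower, and 28 of the 73 were among the 81. The part of depth in the calls was not tested further. Cxcr6 was required only of the comparison cells and was detected in 65.1% of the granzyme-expressing cells. With Cxcr6 required of both, 3 hashed samples and 49 called genes (0.754%) were left, 37 of them among the 81.

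Nkg7 and Ccl5, the markers that the rule did not use, were higher in each of the 5 hashed samples. Nkg7 stood at 1313, 1570 and 1609 CPM in the granzyme-expressing cells of SAT replicates 1, 3 and 4 and at 1166 and 1546 CPM in VAT replicates 1 and 3, against 590, 720, 867, 415 and 692 CPM in the comparison cells. No value of one class reached those of the other, and the log2 fold change was 1.10 ± 0.11 (SE, adjusted p = 1.7e-07). Ccl5 stood at 4860, 5855, 8502, 12601 and 10021 CPM in the same order against 2733, 2776, 3914, 2264 and 3584 CPM, again without overlap (log2 fold change 1.34 ± 0.14, SE). Ccl5 rose more in VAT than in SAT, by 0.93 on the log2 scale (interaction term, a test that called 0.336% of genes, edgeR adjusted p = 0.00415).

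Among granule and killing genes, 3 of 18 tested were higher and none lower, with a median log2 fold change of 0.63 against -0.03 over all 7438 genes. Besides Nkg7 these were Fasl, the ligand of the death receptor Fas (115 CPM ± 37.6 against 43.5 ± 10.2, SD, n = 5, log2 fold change 1.30 ± 0.24), and Serpinb9, the inhibitor that shields cells from their own granzyme B (59.5 ± 28.2 against 18.1 ± 6.92 CPM). Serpinb9 kept its call in 7 of 21 alternatives and lost it, among others, in SAT alone (adjusted p = 0.616), in Gzmb-only cells (0.608), in cells with Cd4 (0.178) and without SAT replicate 1 (0.0737), SAT replicate 3 (0.232), VAT replicate 1 (0.253) or VAT replicate 3 (0.167). Fasl was higher in 5 of 5 samples but lost the call in SAT alone (adjusted p = 0.0897), in cells thinned to 1000 UMIs (0.276) and without cells holding genes of other lineages (0.0626). Prf1 was counted with 16 and 22 UMIs in all sums of the 2 classes and did not pass (log2 fold change 2.23 ± 0.77, adjusted p = 0.259), nor did Gzmk (adjusted p = 0.301).

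Of the chemokine genes 4 of 5 tested were higher and none lower, with a median log2 fold change of 2.06. Xcl1, the chemokine that attracts cross-presenting dendritic cells, stood at 2308, 899 and 663 CPM in the granzyme-expressing cells of SAT replicates 1, 3 and 4 and at 46.0 and 180 CPM in those of VAT replicates 1 and 3, against 137, 243, 159, 65.5 and 95.7 CPM. It was raised in every SAT sample and in VAT replicate 3 but not in VAT replicate 1 (log2 fold change 2.07 ± 0.31, adjusted p = 0.000149), and DESeq2 did not call it (adjusted p = 0.481). Ccl4 and Ccl3, inflammatory chemokines that attract myeloid and T cells, were higher in 5 of 5 samples (log2 fold changes 2.46 ± 0.28 and 3.45 ± 0.62). Ccl3 was counted with only 46 and 21 UMIs in all sums of the 2 classes. In the granzyme-expressing cells Ccl3 was highest in SAT replicate 4 (110 CPM) and lowest in VAT replicate 1 (7.67 CPM). Its call was kept in 17 of 20 alternatives. The call was lost without SAT replicate 4 (edgeR adjusted p = 0.441), in cells thinned to 1000 UMIs (0.126) and without cells holding genes of other lineages (0.511). Where only cells with a Cd4 UMI were summed per library, Ccl4 turned to -0.45 (adjusted p = 0.602).

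Receptors usually described on NK cells were higher for 6 of 11 tested and lower for none, with a median log2 fold change of 2.05. Klrg1, an inhibitory receptor for cadherins, stood at 232, 227, 113, 184 and 144 CPM against 68.9, 37.3, 46.2, 27.4 and 22.5 CPM and did not overlap (log2 fold change 2.05 ± 0.23). Cd160, a receptor for HVEM, stood at 183, 170, 167, 23.0 and 83.9 CPM against 32.5, 36.1, 34.5, 8.64 and 24.4 CPM. Its values were high in SAT in both classes, and the granzyme-expressing cells exceeded their comparison cells in 5 of 5 samples (2.15 ± 0.24). Cd7, an immunoglobulin-family protein of T and NK cells, stood at 263, 624, 858, 130 and 324 CPM against 80.8, 117, 152, 31.0 and 64.7 CPM (2.18 ± 0.17). Nkg7, Ccl5, Klrg1, Cd160 and Cd7 kept their call in all 21 alternatives run for this comparison. Slamf7 was higher without overlap (144 ± 39.9 against 51.5 ± 12.6 CPM), and Cd244a, Klre1 and Klra1 were higher with overlapping samples. Cd244a and Klre1 rest on few UMIs in all sums of the 2 classes, 35 against 19 and 21 against 15. Cd244a was higher in 4 of 5 samples and kept its call in 16 of 20 alternatives. Klre1 was higher in 3 of 5, stood at 0 in granzyme-expressing cells of SAT replicates 3 and 4, and kept its call in 11 of 16. Fcer1g was counted at 24.4, 199 and 211 CPM in SAT and at 0 UMIs in both VAT sums, so its call (log2 fold change 2.27 ± 0.45) rests on SAT, and DESeq2 did not make it. The gamma-chain genes Trgv2 (1.76 ± 0.29) and Trgc2 (2.04 ± 0.30), the latter singled out after its values were seen, were also higher, while Trdc was detected in 0.5% of the cells.

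**Figure D3:**
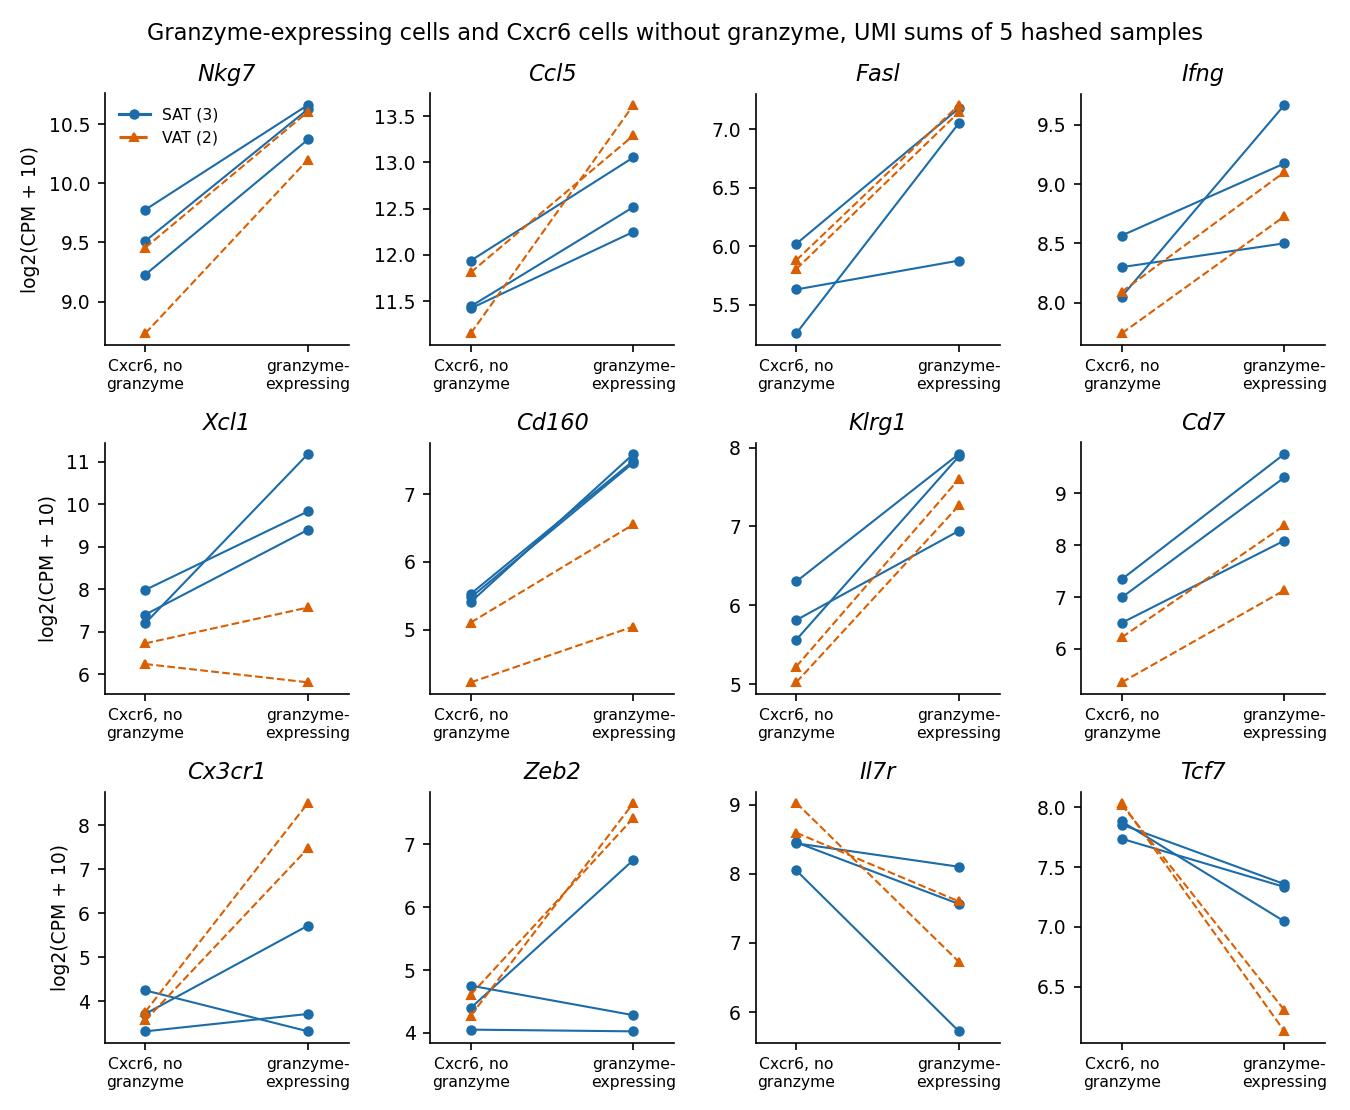
Log2(CPM + 10) of 12 genes in UMI sums of Cxcr6 cells without granzyme (left) and of granzyme-expressing cells (right), joined within each of 5 hashed samples, with circles for SAT and triangles for VAT. Nkg7, Ccl5, Klrg1 and Cd7 rise in all 5 samples, Xcl1 in the 3 SAT samples and VAT replicate 3, Cx3cr1 most in VAT, and Il7r and Tcf7 fall in all 5.

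Of transcription factors linked to effector and cytotoxic cells, 1 of 11 tested was higher. It was Zeb2, a transcriptional repressor needed for terminal effector differentiation, at 97.7, 9.46 and 6.29 CPM in SAT replicates 1, 3 and 4 and 161 and 192 CPM in VAT replicates 1 and 3, against 11.1, 16.9, 6.60, 14.4 and 9.38 CPM (log2 fold change 2.70 ± 0.44). It was raised in both VAT samples and SAT replicate 1 and did not pass in SAT alone (adjusted p = 0.602), without cells holding genes of other lineages (0.224) or with 4 or more granzyme UMIs required (0.218). Tbx21, the T-box factor of Th1 cells, was 0.23 ± 0.21 (adjusted p = 0.909), Runx3 0.25 ± 0.20 (adjusted p = 0.885) and Hopx 0.42 ± 0.14 (adjusted p = 0.186) on the log2 fold scale. Ifng, the cytokine of Th1 cells, was higher in 5 of 5 samples (535 ± 174 against 279 ± 61.8 CPM, log2 fold change 0.84 ± 0.16) and was the only called gene of 12 tested in the Th1 list. It did not pass in 6 of 21 alternatives, among them Cxcr6 required of both classes (adjusted p = 0.441) and the removal of cells holding genes of other lineages (0.920). Cx3cr1, the fractalkine receptor of circulating effector cells, was counted at 42.7, 0 and 3.14 CPM in SAT and 353 and 168 CPM in VAT, against 0 to 9.03 CPM in the comparison cells (log2 fold change 4.69 ± 0.64, not called by DESeq2, adjusted p = 0.0905). Of 13 tested residency and adhesion genes none passed, among them Itga1 (1.01 ± 0.26, adjusted p = 0.0502) and Cd69 (-0.29 ± 0.16, adjusted p = 0.755).

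Of the 27 lower genes 13 encoded cytosolic ribosomal proteins, and by list 2 of 11 tested naive genes and 1 of 11 helper and memory transcription factors were lower. Il7r, the receptor for the survival cytokine IL-7, stood at 42.7, 265, 179, 184 and 95.9 CPM against 255, 338, 341, 377 and 511 CPM (log2 fold change -1.29 ± 0.22, lower in 5 of 5). Its call was kept in 19 of 21 alternatives and lost with the stricter hashtag call (edgeR adjusted p = 0.0985) and in thinned cells (0.0646). Tcf7, a factor of naive and memory T cells, stood at 122, 151, 154, 69.0 and 59.9 CPM against 226, 203, 221, 250 and 252 CPM without overlap (-1.02 ± 0.21). It lost its call in 9 of 21 alternatives, among them SAT alone (adjusted p = 0.258), Gzmb-only cells (0.132), Cxcr6 required of both classes (0.240), the stricter hashtag call (0.234), and without VAT replicate 1 (0.0677), VAT replicate 3 (0.0607) or SAT replicate 1 (0.0686). Cd5, a brake on T cell receptor signals, likewise was lower without overlap (-0.88 ± 0.18). It kept its call in 15 of 21 alternatives and lost it in cells with Cd4 (-0.36, edgeR adjusted p = 0.355) and in thinned cells (0.270). The Cd5 call was also lost with the stricter hashtag call (0.116) and without SAT replicate 1 (0.0693), SAT replicate 4 (0.102) or cells holding genes of other lineages (0.0928). Cd40lg, the helper ligand for CD40, fell by 0.69 ± 0.17 on the log2 scale (SE, adjusted p = 0.0441) and kept this call in 3 of 21 alternatives. Cd4 itself was lower in 5 of 5 samples (126 ± 25.2 against 172 ± 14.5 CPM) but did not pass (-0.52 ± 0.19, adjusted p = 0.305). The ribosomal genes are from 80 tested, a list chosen after the values were seen, and the 13 were lower by 0.32 to 0.44 on the log2 scale, with none higher.

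B cell genes moved with the granzyme-expressing cells too. In the B cell list 5 of 6 tested genes were higher (Cd79a, Cd79b, Ms4a1, Igkc and Cd74), with a median log2 fold change of 5.38, or 4.89 with Ms4a1 at the bound that 3 UMIs set. Igkc stood at 177, 9.46 and 0 CPM in SAT replicates 1, 3 and 4 and at 1150 and 0 CPM in VAT replicates 1 and 3, so that its UMIs came mostly from VAT replicate 1. Only 7 of the 192 cells held a UMI of Cd79a, Cd79b or Ms4a1, and 4 of them held 3 or more. Without such cells in either class 82 genes were called (1.09%), 70 of them among the 81, and Cd74 turned to -1.24 (adjusted p = 0.728).

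Gzma-only and Gzmb-only cells differed in Xcl1, which was higher in Gzmb-only cells, and in Cx3cr1, which was higher in Gzma-only cells. Because the subsets are small, UMIs were summed per library and subset, which gives 6 sums of 7 to 110 cells. These sums pool the tissues, the fit has no tissue term, and among cells with a tissue call Gzmb-only cells were mostly from SAT (101, against 19 from VAT) while Gzma-only cells were not (5 and 8), so subset and tissue cannot be told apart in it. With these sums edgeR called 2 of 1793 genes (0.112%). Xcl1 was found in 25 of 46 and 75 of 110 Gzmb-only cells (54.3% and 68.2%) and in 0 of 20 Gzma-only cells, that is 801 UMIs against 0, at least 48.1-fold higher by the 3 UMIs a count of 0 allows over both libraries (adjusted p = 0.0209). Cx3cr1 was found in 5 of 9 and 6 of 11 Gzma-only cells (222.5 and 271.5 CPM) and in 1 of 46 and 2 of 110 Gzmb-only cells (4.87 and 3.24 CPM), with a log2 fold change of -5.76 ± 0.71 for Gzmb-only against Gzma-only (adjusted p = 0.0402). Cxcr6 cells without granzyme had 4.97 and 2.83 CPM of Cx3cr1. DESeq2 called 8 genes (0.446%). Cx3cr1 lost its call without normalisation factors (adjusted p = 0.0544) and when only cells of a single hashtag call were summed (adjusted p = 0.0917), and 1 gene was called in each.

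Cells with both granzymes stood at 705.5 and 211 CPM of Xcl1 and at 353 and 90.5 CPM of Cx3cr1 in libraries 1 and 2, between or above the other subsets. Against Gzma-only and Gzmb-only cells 0 genes were called for them with edgeR (0%), with 98 and 89 genes at an unadjusted p under 0.05. DESeq2 was not run for these contrasts.

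In an alternative added after seeing the data, all cells with Gzma were put in 1 sum per library. This gave 4 sums of at least 18 cells, with 1 residual degree of freedom and no tissue term. Among cells with a tissue call, those with Gzma were 9 from SAT and 17 from VAT, and Gzmb-only cells 101 and 19. Subset and tissue therefore cannot be told apart in this fit either. With it 42 of 4306 genes were called (0.975%), 21 in each direction (0.488%). Of the egress and homing list 2 of 10 tested genes were higher with Gzma, and of the cytotoxic and effector transcription factors 1 of 9. On the scale of Gzmb-only against cells with Gzma, Zeb2 had a log2 fold change of -3.90 ± 0.47, Klrd1 (CD94) of -2.60 ± 0.46, Klf2, a factor that maintains S1pr1 expression, of -1.90 ± 0.18, and Ccl5 of -1.22 ± 0.14. S1pr5, a sphingosine phosphate receptor used to leave tissue, was called too, with too few UMIs in Gzmb-only cells for a fold. It was found in 4 of 9 and 5 of 11 Gzma-only cells, in 1 of 46 and 0 of 110 Gzmb-only cells, and Klf2 in all 20 Gzma-only cells but in 43.5% and 39.1% of Gzmb-only cells. On the Gzmb-only side stood Ccl4 (2.20 ± 0.35), Fcer1g (2.10 ± 0.52), Xcl1 (2.01 ± 0.23), Anxa1 (1.74 ± 0.32), Tnf (1.65 ± 0.33), Il2rb, the receptor chain shared by IL-2 and IL-15 (1.06 ± 0.22), and S100a4 (0.95 ± 0.13). Nkg7 was at 1038 and 1190 CPM in Gzma-only and at 855 and 1547 CPM in Gzmb-only cells and did not pass (log2 fold change 0.07 ± 0.29, adjusted p = 0.961), and with all cells with Gzma in 1 sum its fold change turned to -0.14 (adjusted p = 0.904).

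Detection of receptor and adhesion genes was compared by cell counts, with no test. Cd160 was found in 14 of 46 and 45 of 110 Gzmb-only cells but in 0 of 9 and 1 of 11 Gzma-only cells, and Itga1, the collagen-binding integrin chain of resident lymphocytes, in 45.7% and 57.3% against 2 of 9 and 1 of 11. Fgl2 was found in 71.7% and 72.7% of Gzmb-only cells and in 1 of 9 and 1 of 11 Gzma-only cells. Cxcr6 was found in 76.1% and 69.1% of Gzmb-only cells and in 5 of 9 and 3 of 11 Gzma-only cells. Klrg1 was found in 4 of 9 and 6 of 11 Gzma-only and in 23 of 46 and 43 of 110 Gzmb-only cells. Cd4 was detected in 5 of 9 and 10 of 11 Gzma-only cells, in 63.0% and 38.2% of Gzmb-only cells, and in 6 of 9 and 2 of 7 with both. Cd8a was found in 3 of 20 Gzma-only cells (15%) and in 0.6% of Gzmb-only cells, and Fcer1g in 1 of 20 (5.0%) and 17.9%. The part of such cells in the differences between subsets was not tested beyond the alternative without them, in which 5 genes were called (0.55%), Cx3cr1 kept its call and Xcl1 lost it (adjusted p = 0.101).

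**Figure D4:**
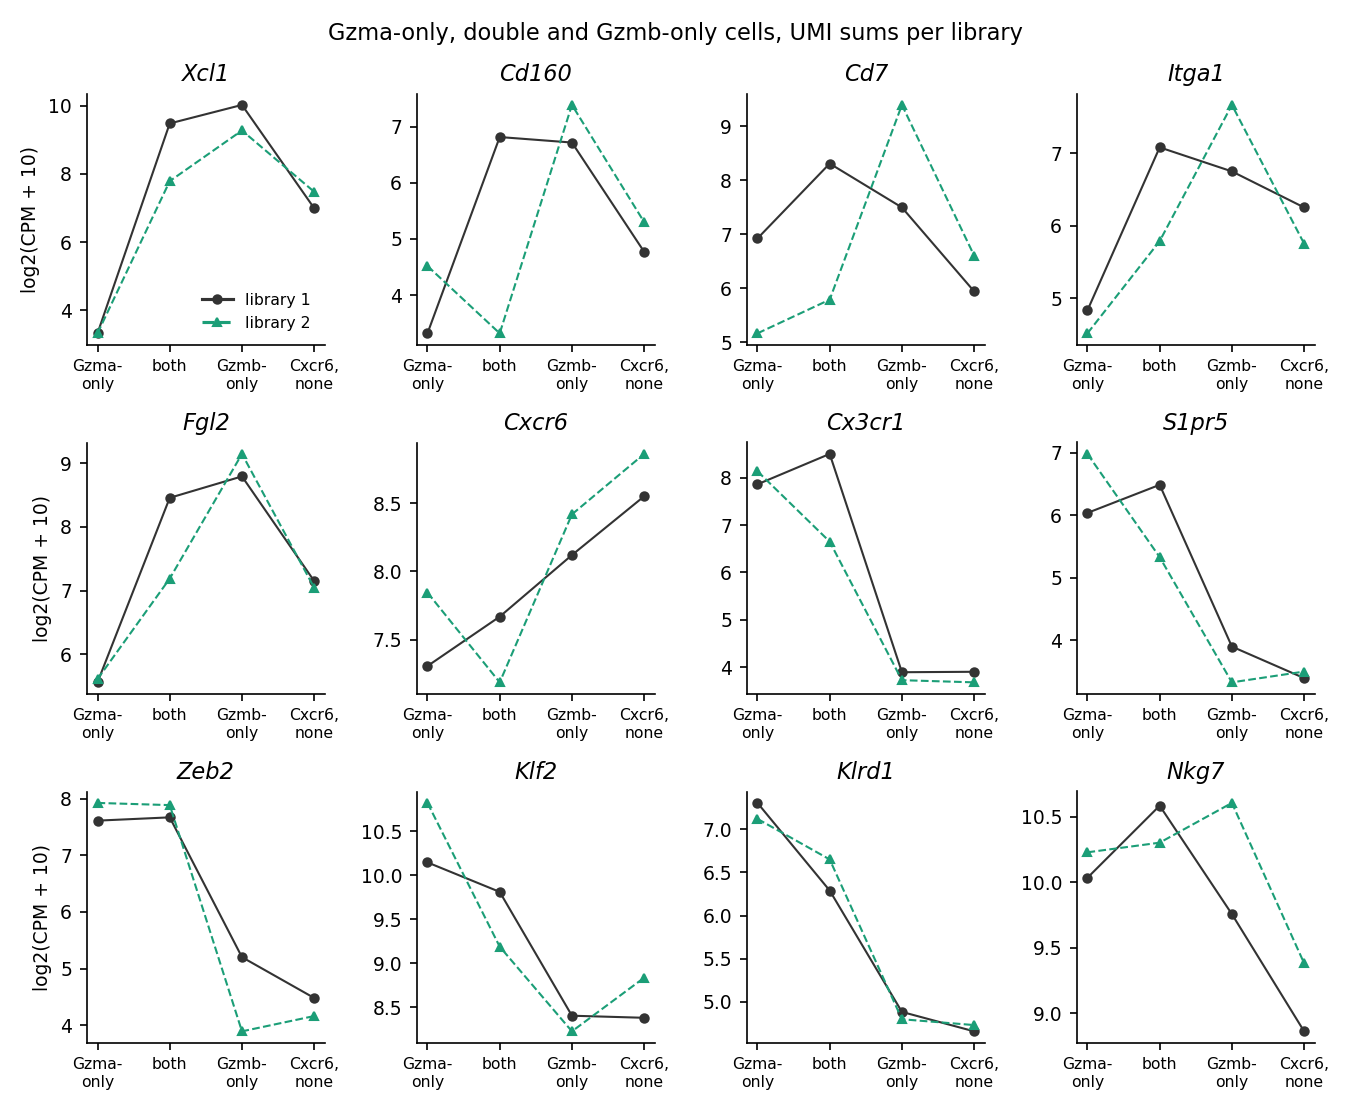
Log2(CPM + 10) of 12 genes in UMI sums of Gzma-only cells, cells with both, Gzmb-only cells and Cxcr6 cells without granzyme, with circles for library 1 and triangles for library 2. Xcl1, Fgl2 and Itga1 are lowest in Gzma-only cells, whereas Cx3cr1, S1pr5, Zeb2, Klf2 and Klrd1 are higher in both groups with Gzma than in Gzmb-only cells.

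Granzyme-expressing cells of SAT and VAT also differed in the expression of some genes. In the 3 SAT and 2 VAT sums of at least 10 cells, with the experiment as a term and 2 residual degrees of freedom, edgeR called 103 of 2250 genes (4.58%), 66 higher in SAT (2.93%) and 37 lower (1.64%). DESeq2 called 16 (0.711%), 7 higher in SAT (0.311%) and 9 lower (0.4%), and cells thinned to 1000 UMIs gave 7 (2.31% of the genes left). SAT cells held more Xcl1, Cd160, Itga1, Tnf and Il2rb and VAT cells more Cx3cr1, Klf2, S1pr1, Itga4 and Ccl5. Of these, DESeq2 called Klf2 and Itga4 but not Xcl1, Itga1, Tnf, Il2rb, S1pr1 and Ccl5. It gave no adjusted p for Cd160 and Cx3cr1. When only Gzmb-only cells were summed, all of these genes lost their call except Cx3cr1, which was not tested there. Nkg7 was 1497 ± 161 CPM in SAT (SD, n = 3) and 1356 ± 269 CPM in VAT (SD, n = 2), with a log2 fold change of 0.05 ± 0.16 (adjusted p = 0.933).

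Xcl1 stood at 2308, 899 and 663 CPM in SAT and at 46.0 and 180 CPM in VAT without overlap (log2 fold change 3.73 ± 0.39, adjusted p = 2.96e-07). Cx3cr1 was the reverse, at 42.7, 0 and 3.14 CPM in SAT and 353 and 168 CPM in VAT (-3.91 ± 0.50). Klf2 stood at 238, 331 and 148 CPM in SAT and 1189 and 803 CPM in VAT (-2.15 ± 0.27), and Rasgrp2, an activator of Rap1 in integrin adhesion, at 55.0, 56.8 and 40.9 CPM against 368 and 252 CPM (-2.63 ± 0.37). Of 5 tested egress and homing genes, 3 were lower in SAT (Cx3cr1, S1pr1 and S1pr4) and 1 higher (Ly6c2), and of 12 residency and adhesion genes 2 were higher (Itga1 and Cd44) and Itga4 lower. Of 8 cell cycle genes 4 were lower in SAT, Stmn1 with 131 ± 25.2 against 563 ± 288 CPM, Rrm2, Tubb5 and Hmgb2. Among Gzmb-only cells Stmn1 was at 120 CPM in SAT and 117 CPM in VAT, and the log2 fold changes of Hmgb2 and Tubb5 turned to 1.23 and 0.048, without a call. In VAT cells with Gzma, 129 Stmn1 UMIs came from 4 of 17 cells. Tubb5 kept its call in 1 of 13 alternatives and Rrm2 in 4 of 10. Of the egress and homing genes, S1pr4 kept its call in 3 of 12, Ly6c2 in 9 of 13, S1pr1 in 10 of 12 and Cx3cr1 in 10 of 10.

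Interferon-stimulated genes stood out by count. Of 11 tested, 10 were higher in SAT and none lower, with a median log2 fold change of 3.21, or 2.88 with the genes at 0 in VAT set to the bound of 3 UMIs. Isg15, an antiviral ubiquitin-like protein, stood at 379, 265 and 374 CPM in SAT replicates 1, 3 and 4 and at 0 and 24.0 CPM in VAT replicates 1 and 3. Ifit3, an RNA-binding interferon effector, gave 74 UMIs in SAT and 0 in VAT, at least 8.97-fold higher. With hashed samples of 5 or more cells (9 sums) Isg15, Ifit1, Ifit3, Irf7 and Iigp1 were not called, and edgeR called 0 of the 11 genes of this list, against 2.85% of all genes. By cells, Isg15 was found in 38 of 101 Gzmb-only cells of SAT and in 2 of 19 of VAT, but the latter held 30 UMIs, so that the levels were 257 and 220 CPM. In Cxcr6 cells without granzyme, Isg15 was at 135 CPM in SAT and 53.2 CPM in VAT, and Ifit3 at 35.7 and 13.8 CPM, without a test.

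The SAT and VAT cells are different mixtures of the subsets, 89.8% and 53.3% Gzmb-only on average, and the mixture and the tissue cannot be told apart in sums of all granzyme-expressing cells. Among cells with Gzma, Cx3cr1 was found in 10 of 17 in VAT (377 CPM) and in 1 of 9 in SAT (75.5 CPM), and Zeb2 in 10 of 17 (259 CPM) and 3 of 9 (75.5 CPM). Ccl5 stood at 6931 CPM in Gzmb-only cells of SAT and 4596 CPM in those of VAT, the reverse of the sums of all cells, and at 5763 and 13744 CPM in cells with Gzma. Among Gzmb-only cells, Cx3cr1 was found in 1 of 101 in SAT and 2 of 19 in VAT, and Zeb2 in 5 of 101 and 1 of 19. Xcl1 was found in 72 of 101 Gzmb-only cells of SAT (1260 CPM) and in 7 of 19 of VAT (183 CPM), and in 0 of 17 cells with Gzma in VAT. When only Gzmb-only cells were summed, in 7 hashed samples of 5 or more, edgeR called 9 of 1499 genes (0.6%), 5 higher in SAT (0.334%) and 4 lower (0.267%). Among these were Ifi27l2a (1.65 ± 0.30), higher, and Il18r1, a chain of the IL-18 receptor (-4.16 ± 0.79), lower. B cell genes (Ighm, Igkc and Cd74) were lower in SAT in the main comparison, and without cells with B cell UMIs 67 genes were called (3.4%).

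**Figure D5:**
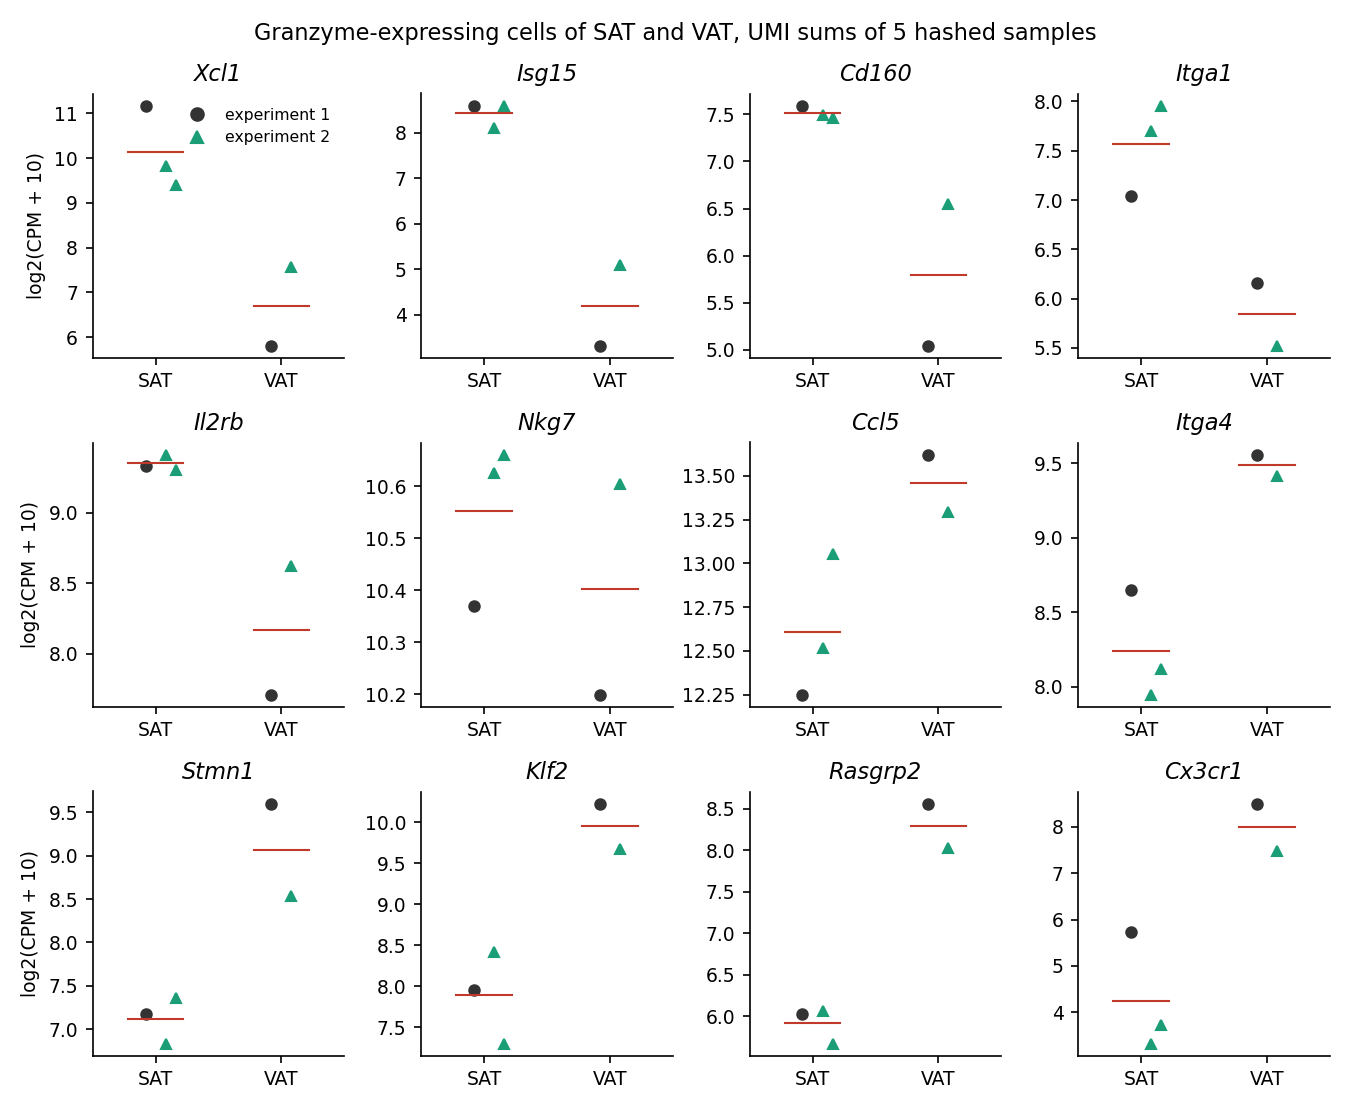
Log2(CPM + 10) of 12 genes in UMI sums of granzyme-expressing cells of 3 SAT and 2 VAT hashed samples, with circles for experiment 1, triangles for experiment 2 and red lines for the group mean. Xcl1, Isg15, Cd160, Itga1 and Il2rb lie higher in every SAT sample, Ccl5, Itga4, Stmn1, Klf2, Rasgrp2 and Cx3cr1 higher in both VAT samples, and Nkg7 overlaps.

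The VAT sums hold 15 and 10 cells, and 1 of the 3 SAT samples has a weak hashtag. With the stricter hashtag call the comparison with Cxcr6 cells called 23 genes (0.338%), 21 of them among the 81. Without SAT replicate 1 the comparison with Cxcr6 cells called 30 genes and without SAT replicate 4 it called 39, and without SAT replicate 4 the comparison of SAT with VAT called 63.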

How the data were processed

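Gene and hashtag values are raw UMI counts per barcode, deposited by the authors as 1 sparse matrix per library. Per the file headers and the submitters' processing notes they were made with Cell Ranger 6.1.0 on mm10, and bcl2fastq and Seurat are named without a version. Raw counts held 29153747 and 43879975 gene UMIs in 4485 and 12239 barcodes. Barcodes needed 500 or more genes, 1000 or more UMIs and a mitochondrial share below 10%, and were called T cells with at least 1 UMI of Trbc1 or Trbc2. A mixture model of the 8 labelled hashtags of each library gave the hashed sample (posterior above 0.95). Barcodes carrying several samples' hashtags were treated as doublets and left out of hashed samples, though not of sums per library, and no doublet caller was run. UMI sums were tested with edgeR 4.0.16 (quasi-likelihood, TMM, filterByExpr with a minimum count of 10, Benjamini-Hochberg) in R 4.3.3, and DESeq2 1.42.0 was an alternative. The fits were tested on simulated data. Gzma, Gzmb, Foxp3 and Klrb1c, and in the first comparison Cxcr6, chose the cells and entered no test. The comparison cells were Klrb1c-zero, so that both classes meet the same rule, and cells with any Klrb1c were an alternative. The subset comparison was designed for sums of at least 10 cells, which only 3 of 6 sums reached, and is reported with a minimum of 5. Genes were named by a rule: Nkg7 and Ccl5, up to 4 called genes per list with the largest change and the same sign in both libraries, and the 8 highest and 8 lowest called genes at 20 CPM or more. Genes named outside it are list members, lineage genes or genes of the added subset fits, chosen with their values known. The cells and gene lists were chosen with earlier results of these data known. Exact Clopper-Pearson intervals are at 95%. Coordinates are from GENCODE vM21.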

Additional observations from a re-analysis of the deposited data

Results flagged for a closer look

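Among 42 groups of 4 or 5 hashed samples checked for a sample that stands apart, 2 held one, and chance gives about 1 in 20. In spleen the share of granzyme-expressing cells was 0.216% in replicate 4 (2 of 926 Foxp3-zero T cells) and 0 in the other 3 samples. For Gpr183, an oxysterol receptor that guides T cells to lymphoid borders, the log2 ratio of granzyme-expressing to Cxcr6 cells was 0.248 in VAT replicate 1, whereas the other 4 samples lay between -1.78 and -1.22.

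The difference between granzyme-expressing and Cxcr6 cells itself differed between VAT and SAT for 5 named genes, by an interaction term in edgeR over 5 hashed samples. On the log2 scale, VAT minus SAT, the difference was -2.41 for Xcl1 (adjusted p = 0.00439) and -1.01 for S100a6 (adjusted p = 0.000645). It was 0.928 for Ccl5 (adjusted p = 0.00415) and 4.71 for Igkc (adjusted p = 0.0400), the latter with most UMIs in VAT replicate 1. For Fcer1g it was -9.12 (adjusted p = 0.0115), a fitted value that depends on the prior count since both VAT sums held 0 UMIs. Over all genes 25 of 7438 passed this test (0.336%). The mixture of Gzma-only and Gzmb-only cells differs between the tissues, and its part in these differences was not tested.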

How the results depend on the processing

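The labels do not tie hashed samples to animals, the sums are small, and 2 hashtags are weak. Alternatives with Gzmb-only cells or cells with Gzma, without B cell UMIs, in SAT alone and with all cells with Gzma in 1 sum were chosen after seeing the data, as was the minimum of 5 cells in the subset comparison. A depth of 1000 UMIs per cell left few genes to test.

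For the shares, BAT minus VAT turned to 2.10 percentage points when Cxcr6 and granzyme-expressing cells were the denominator (exact permutation p = 0.222), and SAT minus VAT to -0.457 for cells with Gzma (exact permutation p = 0.444). Leaving out 1 hashed sample moved BAT minus SAT between -4.11 and -2.80, BAT minus VAT between -1.51 and -0.644, BAT minus spleen between 0.379 and 0.551, SAT minus VAT between 1.59 and 3.05, SAT minus spleen between 3.30 and 4.61 and VAT minus spleen between 1.14 and 2.00, and the SAT minus VAT difference in the Gzmb-only share of the cells between 29.8 and 43.2.

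Against Cxcr6 cells, 81 called genes became 49 with Cxcr6 required of both, 44 with DESeq2, 141 for Gzmb-only cells, 143 with a minimum of 5 cells, 187 without a filter on low counts, 145 for cells with Cd4 summed per library, 246 for sums per library, 23 with the stricter hashtag call, 45 without cells of other lineages and 30 to 65 without 1 hashed sample. In thinned cells 73 genes were called, 16 higher and 57 lower. The median log2 fold change of all genes, -0.03, moved to -0.34 without the filter and -0.14 in thinned cells. Of the named genes' values 546 kept direction and call, 187 lost the call and 3 reversed: Ccl4 in cells with Cd4 (-0.45), Lgals1 in thinned cells (-0.11) and Cd74 without B cell UMIs (-1.24).

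Between the subsets, 2 called genes became 8 with DESeq2, 42 with all cells with Gzma in 1 sum, 1 by library size alone, 52 without the filter, 1 with a single hashtag call, 11 in thinned cells, 4 without B cell UMIs, 5 without cells of other lineages and 5 without the subset with both. Nkg7, which did not pass, reversed to -0.14 with all cells with Gzma in 1 sum, -0.066 in thinned cells and -0.31 without cells of other lineages.

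Between SAT and VAT, 103 called genes became 16 with DESeq2, 9 for Gzmb-only cells, 7 in thinned cells, 67 without B cell UMIs and 63 to 112 without 1 hashed sample. Nkg7, not called, lay between -0.000345 and 0.11 without 1 hashed sample, the lowest without SAT replicate 1, and Hmgb2 (1.23) and Tubb5 (0.048) reversed for Gzmb-only cells. The stricter hashtag call left 3 sums and was not fitted. The cause of these changes was not tested.

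Whether replicate numbers pair the samples was not settled. Same-numbered samples' deviations correlated between -0.288 and 0.228 in experiment 1 and between -0.0474 and 0.465 in experiment 2. These values cover 12 pairs of tissues and 2531 genes, and duplicates alone are too few to decide. With the replicate block the shares gave an exact permutation p of 0.125 for each pair of tissues, the smallest possible, the comparison of SAT with VAT called 79 genes, and the comparison with Cxcr6 cells called 92 with no replicate block. No paired analysis was possible for the subsets because no hashed sample held 5 cells of each.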
